A study of Mus musculus with 24 samples.

Results

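The genes described here encode axon guidance molecules that also act in blood vessels, lymphatic vessels and connective tissue. They are the Eph receptors and their ephrin ligands, the Slits and their Robo receptors, and the netrins and their Unc5 receptors. They were chosen by symbol, and 37 of the 54418 gene IDs in the count table matched: 9 EphA and 5 EphB receptors, 5 ephrin-A and 3 ephrin-B ligands, 3 Slits, 4 Robos, 4 netrins and 4 Unc5 receptors. RNA was sequenced from mouse intestinal stroma, Epcam negative and CD45 negative, meaning that cells with an epithelial and a leukocyte surface protein were left out. The cells were separated by CD31, an endothelial surface protein, and by GFP from an Rspo3 transgene that reports Rspo3, whose product R-spondin 3 is secreted and strengthens Wnt signals. The 8 groups, with 3 libraries each, were colonic CD31+ RSPO3+, CD31+ RSPO3-, CD31- RSPO3+ and CD31- RSPO3- cells and the same 4 fractions of the small intestine. The mice of every group were of C57Bl6 background and 8 to 12 weeks old, and no treatment is named. How the transgene was built, how many animals gave each library and whether different animals stand behind the 3 libraries of a group are not given in the labels. A p-value below therefore measures spread among libraries that may be technical replicates.

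Ephrins are ligands held in the cell membrane. Ephrin-A ligands are anchored by a lipid and mostly bind EphA receptors, ephrin-B ligands span the membrane and mostly bind EphB receptors and EphA4, and both sides of a contact can signal. In blood vessels ephrin-B2 marks arteries and its receptor EphB4 marks veins, and ephrin-B2 is also needed in lymphatic vessels. Slits and netrins are secreted: Slits bind Robo receptors, with the divergent Robo4 found in endothelium, and netrin-1 binds Unc5 receptors, Dcc and neogenin. In the gut lining, gradients of EphB receptors and ephrin-B ligands keep cells in place along the crypt.

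Estimated counts summed to between 8462041 and 29214487 per library (median 17881736). Rspo3 itself stood at 373 ± 30.9 CPM in colonic CD31+ RSPO3+ libraries and 213 ± 66.4 CPM in CD31- RSPO3+ cells, against 14.1 ± 2.56 and 14.2 ± 1.73 CPM in the matching RSPO3- cells (mean ± SD of 3 libraries; CPM are TMM-scaled counts set to one common library size). The CD31 label was checked with 12 pan-endothelial genes, whose summed level was 4843 to 5464 CPM in colonic and 5434 to 5987 CPM in small intestinal CD31+ RSPO3+ libraries, against at most 470.4 CPM in any CD31- library. Within CD31+ cells, all 10 genes of a lymphatic endothelial list were higher and all 10 of a blood endothelial list were lower in RSPO3+ cells of both tissues. The lymphatic list summed to 40848 to 51398 CPM in colonic CD31+ RSPO3+ libraries and 2112 to 2576 CPM in CD31+ RSPO3- libraries, and to 31439 to 35387 CPM in small intestinal CD31+ RSPO3+ against 3352 to 6223 CPM in CD31+ RSPO3- libraries. In CD31+ cells the reporter and the balance of lymphatic and blood endothelial markers cannot be told apart.

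A few libraries stood apart from the others of their group. Colonic CD31+ RSPO3- library 3 had a summed level of 9191 CPM over 8 fibroblast genes, against 1379 and 1804 CPM in libraries 1 and 2. Colonic CD31- RSPO3+ library 3 had 25222 CPM over 8 leukocyte genes, against 1278 and 1034 CPM. Small intestinal CD31- RSPO3- libraries held 6999 to 14377 CPM over 9 epithelial genes, with library 3 the highest, against 74.97 to 243 CPM in CD31- RSPO3+ libraries. Mitochondrial transcripts took 3.49, 2.67 and 4.82% of the counts of these CD31- RSPO3- libraries, against 1.27, 0.922 and 0.690% in small intestinal CD31- RSPO3+ libraries. This gap lies beside every small intestinal CD31- RSPO3 difference given below, and its part in them was not tested. Some results below are also given without such a library, where leaving it out ended a call or moved the value. Results without such a value are given with all libraries only.

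By level per transcript length (TPM), CD31+ and CD31- cells held different sets of guidance genes. The 37 genes summed to 722 ± 65.99 TPM in colonic CD31+ RSPO3+, 897 ± 138 TPM in CD31+ RSPO3-, 397 ± 82.9 TPM in CD31- RSPO3+ and 313 ± 74.6 TPM in CD31- RSPO3- cells. The small intestinal sums were 779.7 ± 19.000 TPM in CD31+ RSPO3+, 849 ± 97.9 TPM in CD31+ RSPO3-, 437 ± 70.1 TPM in CD31- RSPO3+ and 346 ± 21.5 TPM in CD31- RSPO3- cells (mean ± SD, n = 3). Efna1, encoding ephrin-A1, was first of the 37 in all 4 CD31+ groups, with 293 ± 16.5 TPM in colonic CD31+ RSPO3+ and 407 ± 79.5 TPM in CD31+ RSPO3- cells. Robo4 and the gene for EphB4 were among the first 4 in the same groups. Slit3 was first in 3 of the 4 CD31- groups, at 188 ± 47.02 TPM in colonic CD31- RSPO3+ cells, and second after Efna1 in small intestinal CD31- RSPO3- cells. Ntn1, encoding netrin-1, was in the first 4 in CD31+ RSPO3+ cells and in all 4 CD31- groups, but not among the first 6 in CD31+ RSPO3- cells.

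**Figure D1:**
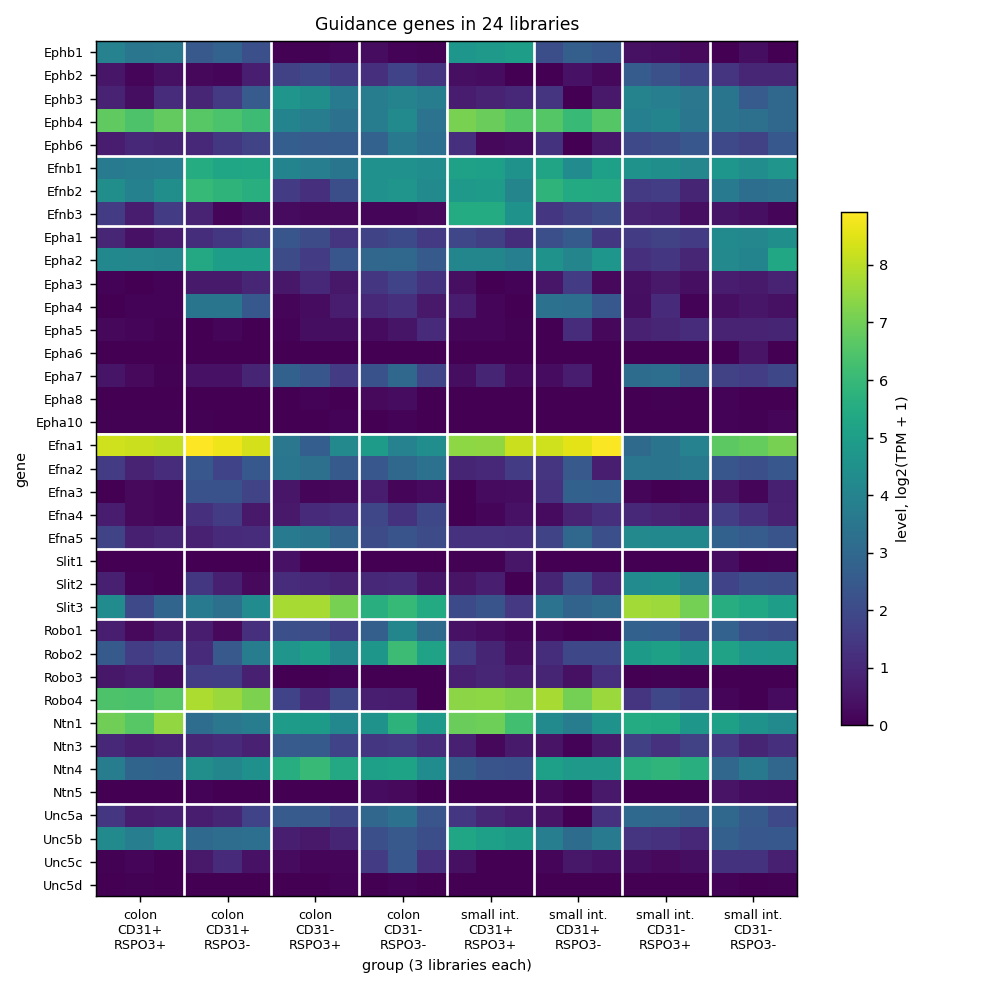
Level of the 37 guidance genes as log2(TPM + 1), with genes in rows by family and the 24 libraries in columns by group (3 columns per group, colon left and small intestine right). Efna1, Ephb4 and Robo4 are bright in CD31+ columns, Slit3 and Robo2 in CD31- columns, and Ntn1 is brightest in CD31+ RSPO3+ columns.

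Of the 37 genes, 31 had enough counts to be tested. The other 6 (Epha6, Epha8, Epha10, Slit1, Ntn5 and Unc5d) did not exceed 0.587 CPM in any library. Higher and lower calls below are those of edgeR's quasi-likelihood test at a Benjamini-Hochberg adjusted p under 0.05 over 19050 genes. The percentages give the share of all tested genes called in the same comparison, against which each count should be read. In bulk libraries, fewer cells of a type and less RNA per cell cannot be told apart.

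CD31 status split the guidance genes most. Between colonic CD31+ RSPO3+ and CD31- RSPO3+ cells, 10 of the 31 tested genes were higher and 16 lower in CD31+ cells (33.1% of all genes called, 14.9% higher and 18.2% lower; median log2 fold change -2.11 against -0.07 over all genes). In small intestinal RSPO3+ cells the counts were again 10 and 16 (36.5% of all genes called, 16.9% higher and 19.6% lower; median -2.23 against -0.01). RSPO3- cells gave 11 higher and 11 lower in colonic CD31+ cells (32.5% of all genes called, 16.1% higher and 16.4% lower; median -0.77 against -0.07) and 11 higher and 10 lower in the small intestine (41.6% of all genes called, 20.1% higher and 21.6% lower; median -0.62 against -0.03). Genes higher in CD31+ cells in all 4 comparisons were Efna1, Efnb2, Ephb1, Ephb4, Unc5b, Robo3 and Robo4. Genes lower in all 4 were Slit3, Robo1, Robo2, Ephb2, Ephb3, Ephb6, Epha7 and Unc5a. In each of the 4 comparisons the called share of tested members was larger than that of all genes. Within a tissue, the RSPO3+ and RSPO3- comparisons share no library. The labels do not say whether their libraries came from the same animals, so these comparisons may not be independent.

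By the reporter, in the colon 3 tested genes were higher and 12 lower in CD31+ RSPO3+ than in CD31+ RSPO3- cells (23.1% of all genes called, 9.52% higher and 13.6% lower; median -1.03 against -0.05). Without CD31+ RSPO3+ library 2 the calls numbered 9, with 3 higher and 6 lower, and without CD31+ RSPO3+ library 3 or CD31+ RSPO3- library 3 they numbered 10. Small intestinal CD31+ cells gave 5 higher and 6 lower (20.1% of all genes called, 9.23% higher and 10.8% lower; median -0.56 against 0.00). Among CD31- cells, 4 genes were higher and 3 lower in the RSPO3+ fraction of the colon (9.14% of all genes called, 4.8% higher and 4.34% lower; median -0.16 against 0.00). The share of all genes called there was 5.7% without CD31- RSPO3+ library 1 and 5.79% without CD31- RSPO3- library 3, with 6 to 8 members called over the left-out libraries. The small intestine gave 6 higher and 5 lower (30.4% of all genes called, 16.1% higher and 14.3% lower; median 0.32 against 0.11), a share close to that of all genes. Averaged over both tissues, the RSPO3 difference of 15 genes differed between CD31+ and CD31- cells (30.2% of all genes called, 13.1% higher and 17.1% lower), 6 with a more positive and 9 with a more negative value in CD31+ cells.

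Colon and small intestine differed in fewer of these genes, and in fewer of all genes, than CD31+ and CD31- cells did. The called share of tested members was 16.1% in the CD31+ RSPO3+ fraction and 9.68% in the CD31+ RSPO3- fraction. It was 9.68% in the CD31- RSPO3+ and 12.9% in the CD31- RSPO3- fraction. Only the share of the CD31- RSPO3- fraction lay below that of all genes. Colonic cells were higher for 2 and lower for 3 genes in the CD31+ RSPO3+ fraction (6.35% of all genes called, 2.83% higher and 3.52% lower). They were higher for 1 and lower for 2 in CD31+ RSPO3- cells (4.43% of all genes called, 2.72% higher and 1.71% lower). The CD31- RSPO3+ fraction gave 1 higher and 2 lower in colonic cells (7.02% of all genes called, 3.62% higher and 3.4% lower) and the CD31- RSPO3- fraction 1 higher and 3 lower (17.6% of all genes called, 8.79% higher and 8.81% lower). The tissue difference of the RSPO3 effect passed for 3 genes in CD31+ cells (1.93% of all genes called, 0.64% higher and 1.29% lower) and for 4 in CD31- cells (8.38% of all genes called, 4.91% higher and 3.48% lower). The 5 calls of the CD31+ RSPO3+ fraction numbered 3 without colonic or small intestinal library 1. The 3 calls of the CD31+ RSPO3- fraction numbered 1 without colonic library 3 and 5 without colonic or small intestinal library 1. The 3 tissue differences in CD31+ cells numbered 1 without colonic RSPO3+ library 1, colonic RSPO3- library 1 or 2, or small intestinal RSPO3+ library 2 or 3. Left-out libraries also lowered the shares of all genes called by over 1.5 times. In CD31+ cells the share was 4.03% without colonic library 3 in the RSPO3+ fraction, 2.81% without small intestinal library 2 in the RSPO3- fraction, and 1.24% for the tissue difference without colonic RSPO3- library 1. In the CD31- RSPO3+ fraction it was 4.44%, 3.99% and 3.91% without small intestinal library 1, 2 or 3, and in the CD31- RSPO3- fraction 10.5% without small intestinal library 3. For the tissue difference in CD31- cells it was 5.44% without colonic RSPO3+ library 3, 5.24% without colonic RSPO3- library 2 and 4.52% without small intestinal RSPO3- library 3. The members called in these CD31- comparisons numbered 2 to 3, 4 to 6 and 4 to 5 over the left-out libraries.

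**Figure D2:**
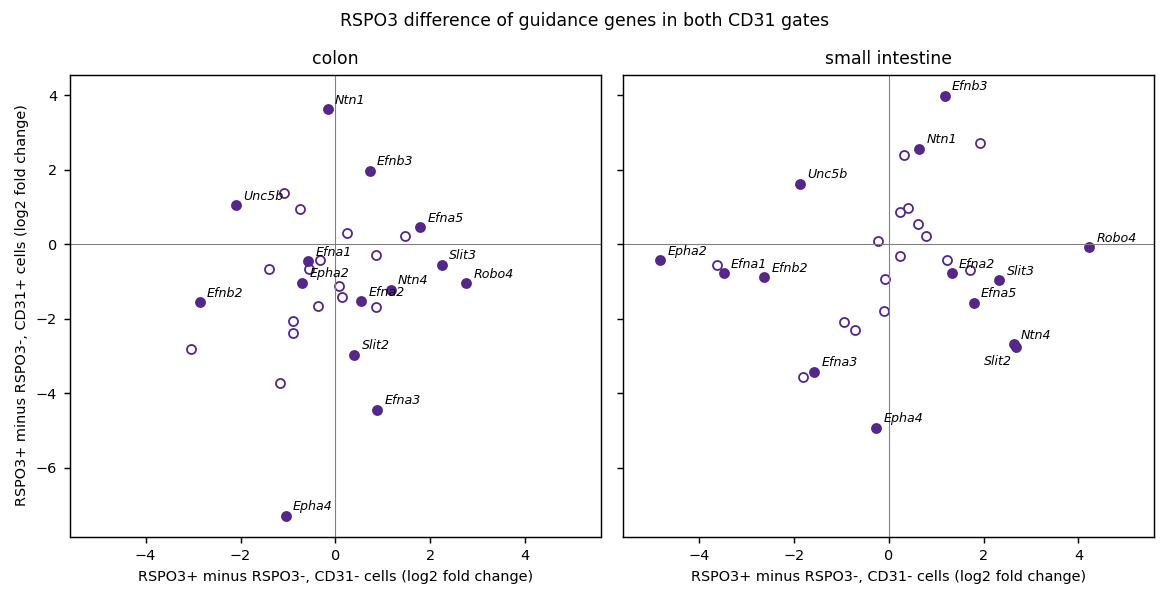
Log2 fold change of RSPO3+ minus RSPO3- cells for 30 tested guidance genes, in CD31+ cells (vertical) and CD31- cells (horizontal), for colon (left) and small intestine (right). Filled and named points are the genes whose RSPO3 difference, averaged over both tissues, differed between CD31+ and CD31- cells. Robo3, at 0 counts in 2 groups, is left out, Unc5b lies at upper left in both panels and Ntn4 at lower right.

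Unc5b, Ephb4, Efnb2 and Epha4 were all higher in CD31+ RSPO3- than in CD31- RSPO3- cells of both tissues, and their calls by reporter in CD31+ cells differed. Unc5b was called higher in both tissues, Ephb4 higher in the small intestine, Efnb2 lower in the colon and Epha4 lower in both. The Ephb4 call ended in 6 of the alternative and left-out runs. Small intestinal CD31+ Efnb2 levels also lay lower with the reporter, without overlap, but that difference did not pass. The upstream sequences of these 4 members are shown for this reason. Each is the stretch of 250 bases before the RefSeq start (GRCm38.p6), written 5′ to 3′ on the gene's strand. Capitals mark GGAAG or its reverse complement CTTCC, a longer form of the GGAA core bound by ETS factors. They also mark GGGCGG or CCGCCC, the GC box. GGAA followed by another base is not marked. Ephb4 lies at chr5:137349859-137350108 on the plus strand, and the others on the minus strand, Efnb2 at chr8:8661243-8661492, Epha4 at chr1:77515089-77515338 and Unc5b at chr10:60831582-60831831.
Ephb4: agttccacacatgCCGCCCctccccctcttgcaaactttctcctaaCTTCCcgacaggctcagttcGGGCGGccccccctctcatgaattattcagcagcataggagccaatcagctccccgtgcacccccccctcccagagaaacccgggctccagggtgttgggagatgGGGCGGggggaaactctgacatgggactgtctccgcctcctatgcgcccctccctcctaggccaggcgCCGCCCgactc
Efnb2: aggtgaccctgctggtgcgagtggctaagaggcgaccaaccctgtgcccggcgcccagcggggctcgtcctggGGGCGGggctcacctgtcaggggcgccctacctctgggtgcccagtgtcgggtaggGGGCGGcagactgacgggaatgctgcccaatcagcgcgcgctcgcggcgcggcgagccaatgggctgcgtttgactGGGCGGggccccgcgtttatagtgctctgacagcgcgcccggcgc
Epha4: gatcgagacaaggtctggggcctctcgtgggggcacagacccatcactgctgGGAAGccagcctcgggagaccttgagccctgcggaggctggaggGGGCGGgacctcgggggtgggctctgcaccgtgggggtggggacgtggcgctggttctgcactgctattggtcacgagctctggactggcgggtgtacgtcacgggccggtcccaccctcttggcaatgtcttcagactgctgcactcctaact
Unc5b: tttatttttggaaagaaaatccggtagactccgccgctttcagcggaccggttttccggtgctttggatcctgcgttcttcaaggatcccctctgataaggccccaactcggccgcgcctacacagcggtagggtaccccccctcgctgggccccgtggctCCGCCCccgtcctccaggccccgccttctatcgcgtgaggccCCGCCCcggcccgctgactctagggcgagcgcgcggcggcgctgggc
GGAAG or CTTCC was found in the Ephb4 and Epha4 stretches and not in those of Efnb2 and Unc5b. The Efnb2 and Unc5b stretches hold GGAA followed by another base. GC boxes were found in all 4, with 4 in Ephb4, 3 in Efnb2, 1 in Epha4 and 2 in Unc5b. Of 33 members with such a stretch, 22 held GGAAG and 23 a GC box on either strand, against 64.1% and 32.7% of 32851 stretches of all genes. The 4 stretches had GC contents of 64.0% to 72.0%, against a median of 52.4%. These are matches of letters only.

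Of the class B genes, the ephrin-B ligands are described first and the EphB receptors after them. Efnb2 encodes ephrin-B2, the arterial ligand. It had 60.4, 49.8 and 64.6 CPM in colonic CD31+ RSPO3+ libraries, against 197, 169 and 148 CPM in CD31+ RSPO3-, and 6.73, 4.92 and 14.2 CPM in CD31- RSPO3+, against 64.3, 65.1 and 58.7 CPM in CD31- RSPO3- libraries. The small intestinal fractions held 82.4, 90.8 and 49.9 CPM (CD31+ RSPO3+), 165, 129 and 115 CPM (CD31+ RSPO3-), 6.503, 7.51 and 3.21 CPM (CD31- RSPO3+) and 41.8, 28.3 and 36.3 CPM (CD31- RSPO3-). The RSPO3+ libraries lay below the RSPO3- libraries in all 4 pairs, without overlap. Efnb2 fell in colonic CD31+ RSPO3+ cells (log2 fold change -1.55 ± 0.32 SE, edgeR adjusted p = 0.00119) and in CD31- RSPO3+ cells of the colon (-2.86 ± 0.34, edgeR adjusted p = 2.70e-05) and the small intestine (-2.63 ± 0.34, edgeR adjusted p = 9.18e-06). In small intestinal CD31+ cells the difference of -0.87 ± 0.31 did not pass (edgeR adjusted p = 0.0559). The difference was larger in CD31- than in CD31+ cells over both tissues (CD31+ minus CD31- 1.53 ± 0.32, edgeR adjusted p = 9.77e-04). In colonic CD31- cells smooth muscle and pericyte markers moved with Efnb2, with 6 of 6 and 5 of 6 genes lower with the reporter. The smooth muscle list summed there to 504 to 767 CPM in RSPO3+, against 3009.9 to 4366 CPM in RSPO3- libraries. In small intestinal CD31- cells 3 of 6 pericyte genes were lower. The pericyte sums overlapped there, at 494 to 589 CPM in RSPO3+, against 457 to 598 CPM in RSPO3- libraries. The smooth muscle list held 1102 to 1597 CPM in these RSPO3+, against 1325 to 2037 CPM in RSPO3- libraries, and none of its 6 genes was called. All 5 tested enteric glia genes were lower in CD31- RSPO3+ cells of both tissues. Of 9 epithelial genes, 7 were lower and 1 higher in small intestinal CD31- RSPO3+ cells. Their sums there were 75.0 to 243 CPM in RSPO3+, against 6999 to 14377 CPM in RSPO3- libraries. All 4 mesothelial genes were lower there too, at sums of 1.01 to 19.2 CPM, against 238 to 503 CPM. In colonic CD31- RSPO3+ cells 1 epithelial gene was lower and no mesothelial gene was called. The part of these lists in the result was not tested.

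Efnb3, encoding ephrin-B3, was a gene of a single fraction. It had 90.2, 87.9 and 46.9 CPM in small intestinal CD31+ RSPO3+ libraries, against 3.305, 4.77 and 6.03 CPM in CD31+ RSPO3- libraries, and 2.02, 1.72 and 0.680 CPM in CD31- RSPO3+, against 0.969, 0.661 and 0.270 CPM in CD31- RSPO3- libraries. In the colon it had 3.67, 1.53 and 4.06 CPM in CD31+ RSPO3+ libraries, 1.65, 0.193 and 0.518 CPM in CD31+ RSPO3- libraries, 0.488, 0.328 and 0.443 CPM in CD31- RSPO3+ libraries and 0.186, 0.220 and 0.335 CPM in CD31- RSPO3- libraries. The 3 small intestinal CD31+ RSPO3+ libraries lay above every other library of the series. Efnb3 rose there against CD31+ RSPO3- cells (log2 fold change 3.998 ± 0.60 SE, edgeR adjusted p = 5.09e-05) and was lower in colonic than in small intestinal CD31+ RSPO3+ cells (-4.60 ± 0.61, edgeR adjusted p = 8.54e-05). The colonic RSPO3 difference was 1.98 ± 0.58 with overlapping libraries (edgeR adjusted p = 0.0179), 3.13 without CD31+ RSPO3- library 1, and it did not pass without CD31+ RSPO3+ library 3 (adjusted p = 0.0589) or CD31+ RSPO3- library 2 or 3 (0.0625 and 0.0622). The tissue difference of the RSPO3 effect was -2.02 ± 0.79 and did not pass (edgeR adjusted p = 0.239).

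Efnb1, encoding ephrin-B1, was detected in every library. It had 22.8, 30.6 and 28.4 CPM in colonic CD31+ RSPO3+, against 94.4, 79.1 and 82.9 CPM in CD31+ RSPO3-, and 36.3, 32.9 and 29.02 CPM in CD31- RSPO3+, against 44.04, 39.8 and 42.4 CPM in CD31- RSPO3- libraries. Small intestinal levels were 69.2, 65.3 and 50.1 CPM in CD31+ RSPO3+ libraries, 72.5, 38.2 and 61.9 CPM in CD31+ RSPO3- libraries, 53.4, 49.7 and 40.7 CPM in CD31- RSPO3+ libraries and 57.1, 45.2 and 66.1 CPM in CD31- RSPO3- libraries. Colonic CD31+ RSPO3+ libraries overlapped those of colonic CD31- RSPO3+ cells and lay below the libraries of all other groups. Of the 4 RSPO3 comparisons only that of colonic CD31+ cells passed (log2 fold change -1.65 ± 0.20 SE, edgeR adjusted p = 4.64e-06), and this difference differed from that of the small intestine (colon minus small intestine -1.75 ± 0.28, edgeR adjusted p = 0.00176). Efnb1 was also lower in colonic than in small intestinal CD31+ RSPO3+ cells (-1.18 ± 0.20, edgeR adjusted p = 9.78e-04).

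**Figure D3:**
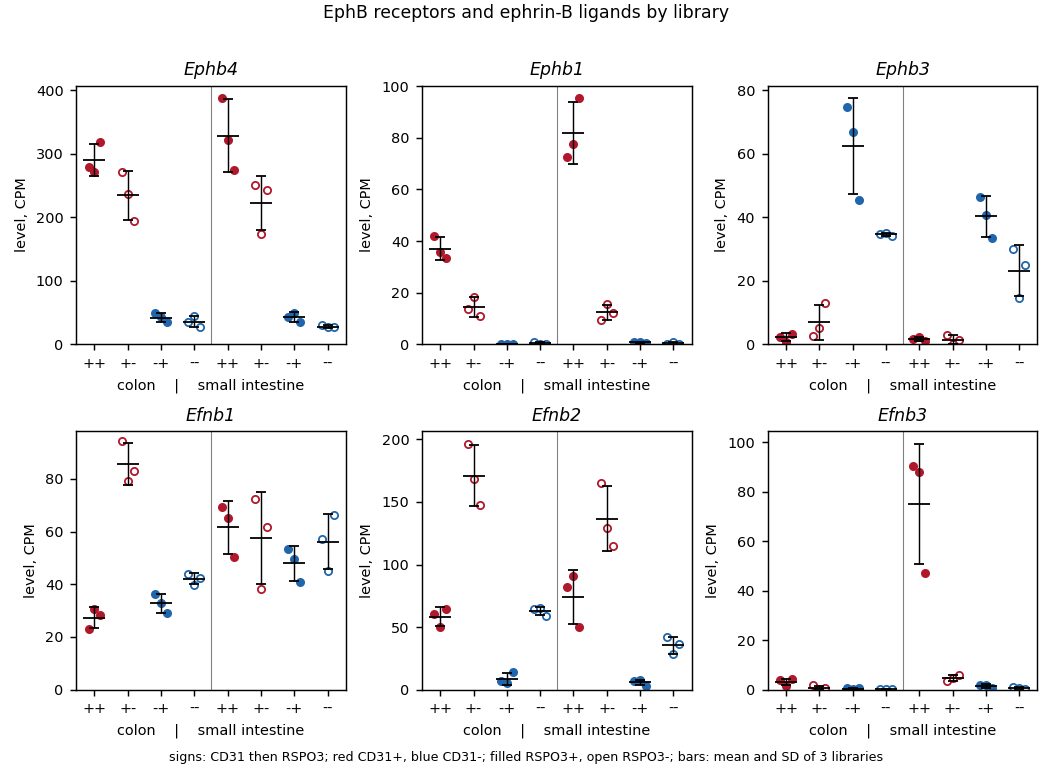
Levels of 3 EphB receptor genes (top) and the 3 ephrin-B genes (bottom) in CPM in each library, by tissue and by CD31 and RSPO3 sign, with mean and SD of 3 libraries. Efnb2 is lower in RSPO3+ than in RSPO3- libraries in every pair, Efnb3 reaches 46.9 to 90.2 CPM in small intestinal CD31+ RSPO3+ libraries and is at most 6.03 CPM in the others, and Ephb4 is at least 174 CPM in every CD31+ library.

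Of the EphB receptors, Ephb4 and Ephb1 were endothelial and Ephb2, Ephb3 and Ephb6 stromal by CD31. Ephb4 (ENSMUSG00000029710, chromosome 5, 137350109 to 137378669 on GRCm38) encodes the venous receptor of ephrin-B2. It had 279, 272 and 318 CPM in colonic CD31+ RSPO3+ libraries and 271, 237 and 195 CPM in CD31+ RSPO3- libraries, against 48.6, 42.05 and 34.9 CPM in CD31- RSPO3+ libraries and 35.2, 43.8 and 27.6 CPM in CD31- RSPO3- libraries. The small intestine had 388, 322 and 274 CPM in CD31+ RSPO3+ libraries and 251, 174 and 243 CPM in CD31+ RSPO3-, against 43.4, 49.8 and 34.5 CPM in CD31- RSPO3+ libraries and 29.9, 27.02 and 26.4 CPM in CD31- RSPO3- libraries. Every CD31+ library lay above every CD31- library, and Ephb4 was 6.92-fold higher in CD31+ than in CD31- cells of the colonic RSPO3+ fraction (log2 fold change 2.79 ± 0.21 SE, edgeR adjusted p = 4.05e-09), with 2.72, 2.95 and 3.00 in the other comparisons. The reporter went with smaller differences, higher in small intestinal CD31+ RSPO3+ (0.56 ± 0.19, edgeR adjusted p = 0.0482) and CD31- RSPO3+ cells (0.61 ± 0.20, edgeR adjusted p = 0.0218). Neither passed with no low-count filter, with only the compared libraries or in limma. The CD31+ call also ended without RSPO3+ library 1 or 2 (edgeR adjusted p = 0.182 and 0.0693) or RSPO3- library 2 (0.171). The CD31- call ended without RSPO3+ library 1 or 2 (edgeR adjusted p = 0.0556 and 0.26) or RSPO3- library 2 or 3 (0.0771 and 0.0752). Ephb4 overlaps Zan on the opposite strand, and the libraries do not mark strand.

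Ephb1 had 42.03, 35.6 and 33.5 CPM in colonic CD31+ RSPO3+ libraries, against 13.5, 18.5 and 10.998 CPM in CD31+ RSPO3- libraries, and at most 0.889 CPM in any CD31- library. Small intestinal CD31+ RSPO3+ libraries had 72.4, 77.5 and 95.3 CPM, against 9.38, 15.5 and 11.98 CPM in CD31+ RSPO3- libraries. The RSPO3+ libraries lay above the RSPO3- libraries in both tissues. Ephb1 rose in small intestinal CD31+ RSPO3+ cells (log2 fold change 2.73 ± 0.62 SE, edgeR adjusted p = 0.00324), and the colonic difference of 1.37 ± 0.60 did not pass (edgeR adjusted p = 0.106). The CD31- groups held 6 counts (colonic RSPO3+) to 50 counts (small intestinal RSPO3+) over 3 libraries.

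The stromal EphB receptors were led by Ephb3. It had 2.22, 0.831 and 3.36 CPM in colonic CD31+ RSPO3+ libraries and 2.55, 5.07 and 13.1 CPM in CD31+ RSPO3-, against 74.7, 66.8 and 45.5 CPM in CD31- RSPO3+ libraries and 34.6, 35.1 and 33.9 CPM in CD31- RSPO3- libraries. Small intestinal CD31+ RSPO3+ libraries had 1.61, 2.27 and 0.948 CPM and CD31+ RSPO3- libraries 2.83, 0 and 1.29 CPM, against 46.4, 40.7 and 33.6 CPM in CD31- RSPO3+ libraries and 30.04, 14.5 and 25.1 CPM in CD31- RSPO3- libraries. Every CD31- library lay above every CD31+ library. The log2 fold change of CD31+ against CD31- cells was -4.85 ± 0.77 SE in colonic RSPO3+ (edgeR adjusted p = 4.96e-05) and -4.60 ± 0.77 in small intestinal RSPO3+ cells (edgeR adjusted p = 6.93e-05). In colonic RSPO3- cells it was -2.32 ± 0.68 (edgeR adjusted p = 0.013) and -3.23 without CD31+ library 3, the one with high fibroblast markers, and it did not pass without CD31+ library 1 or 2 (edgeR adjusted p = 0.0615 and 0.0538). In small intestinal RSPO3- cells it was -4.05, and -5.26 without CD31+ library 1.

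Ephb2 had 1.32, 0.320 and 1.08 CPM in colonic CD31+ RSPO3+ libraries and 0.948, 0.386 and 1.98 CPM in CD31+ RSPO3-, against 9.17, 12.1 and 8.28 CPM in CD31- RSPO3+ libraries and 5.38, 6.23 and 4.68 CPM in CD31- RSPO3- libraries. Small intestinal levels were 0.459, 0.368 and 0 CPM in CD31+ RSPO3+ libraries and 0.0590, 0.623 and 0.862 CPM in CD31+ RSPO3-, against 21.6, 14.9 and 10.7 CPM in CD31- RSPO3+ libraries and 5.64, 4.05 and 4.703 CPM in CD31- RSPO3- libraries. It followed Ephb3 in its split by CD31, with log2 fold changes of -3.42 and -5.64 in RSPO3+ cells of colon and small intestine, and its RSPO3 differences of 0.86 and 1.71 in CD31- cells did not pass (edgeR adjusted p = 0.472 and 0.0539). Ephb6, an Eph receptor without kinase activity, had 0.120, 0.703 and 0.867 CPM in colonic CD31+ RSPO3+ libraries and 0.849, 1.64 and 6.38 CPM in CD31+ RSPO3-, against 8.68, 8.99 and 8.03 CPM in CD31- RSPO3+ libraries and 14.7, 18.1 and 15.005 CPM in CD31- RSPO3- libraries. The small intestine had 0.872, 0.368 and 0.474 CPM in CD31+ RSPO3+ libraries and 1.06, 0 and 1.12 CPM in CD31+ RSPO3-, against 8.08, 9.44 and 9.23 CPM in CD31- RSPO3+ libraries and 7.79, 6.28 and 8.703 CPM in CD31- RSPO3- libraries. Its highest CD31+ library was again colonic RSPO3- library 3. The call of lower Ephb6 in colonic CD31+ RSPO3+ cells (-2.38, edgeR adjusted p = 0.0348, libraries overlapping) was -1.08 and did not pass without that library (adjusted p = 0.343), nor without CD31+ RSPO3+ library 1 or 2 (0.13 and 0.0715). In colonic RSPO3- cells the CD31 log2 fold changes of Ephb2 and Ephb6 were -2.28 and -2.42, and -3.06 and -3.71 without that library. Both ended without CD31+ library 1 (edgeR adjusted p = 0.0546 and 0.0753) or 2 (0.0652 and 0.0749).

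Among the ephrin-A ligands, Efna1 and Efna5 took opposite sides. Efna1 encodes ephrin-A1, an inflammation-inducible endothelial ligand. It had 259, 304 and 251 CPM in colonic CD31+ RSPO3+ libraries and 439.7, 376 and 296 CPM in CD31+ RSPO3-, against 10.8, 5.71 and 21.2 CPM in CD31- RSPO3+ libraries and 26.8, 11.6 and 18.1 CPM in CD31- RSPO3- libraries. Small intestinal cells had 150.3, 153 and 273 CPM in CD31+ RSPO3+ libraries and 266, 328 and 386 CPM in CD31+ RSPO3-, against 7.59, 10.03 and 15.3 CPM in CD31- RSPO3+ libraries and 99.5, 111 and 157 CPM in CD31- RSPO3- libraries. CD31+ libraries were higher throughout, apart from the small intestinal CD31- RSPO3- group, whose highest library overlapped the CD31+ RSPO3+ group. In colonic RSPO3+ cells the log2 fold change of CD31+ against CD31- cells was 4.43 ± 0.43 SE (edgeR adjusted p = 1.36e-07), and 5.05 without CD31- RSPO3+ library 3.

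In small intestinal CD31- cells, Efna1 fell with the reporter together with 2 EphA receptor genes. Efna1 was 11.2-fold lower in CD31- RSPO3+ cells (log2 fold change -3.48 ± 0.41 SE, edgeR adjusted p = 3.84e-06). Epha2, encoding a receptor of ephrin-A1, had 2.26, 3.22 and 2.14 CPM in CD31- RSPO3+, against 48.4, 42.97 and 124 CPM in CD31- RSPO3- libraries, and had a log2 fold change of -4.82 ± 0.38 SE (edgeR adjusted p = 6.53e-08). Without CD31- RSPO3- library 3 the value was -4.17. Epha1 had 3.11, 4.02 and 2.77 CPM, against 38.8, 32.6 and 50.4 CPM, and a log2 fold change of -3.62 ± 0.40 SE (edgeR adjusted p = 1.89e-06). No CD31- RSPO3+ library reached any RSPO3- library in these 3 genes. The colonic CD31- differences were -0.57, -0.70 and 0.13 and did not pass, and the tissue difference passed for each (colon minus small intestine 2.91, 4.12 and 3.75, edgeR adjusted p = 0.00248, 2.88e-05 and 2.16e-04). Without colonic CD31- RSPO3+ library 3 the Efna1 tissue difference was 2.29, and without small intestinal CD31- RSPO3- library 3 that of Epha2 was 3.47. The epithelial list moved with these genes: 7 of 9 epithelial genes fell and 1 rose in small intestinal CD31- RSPO3+ cells, at the summed levels given above, and 1 of 9 fell in the colon, at 35.7 to 1539 CPM in CD31- RSPO3+, against 1189 to 4352 CPM in CD31- RSPO3- libraries. The share of mitochondrial counts was also lower in small intestinal CD31- RSPO3+ libraries, at 0.690 to 1.27%, against 2.67 to 4.82% in CD31- RSPO3- libraries. The part of either in the result was not tested. Colonic CD31- RSPO3- cells held less of all 3 genes than small intestinal ones (Efna1 -2.71, Epha2 -2.40, or -1.75 without small intestinal library 3, and Epha1 -3.18, edgeR adjusted p = 7.62e-05, 4.35e-05 and 1.07e-05). Epha1 overlaps Zyx on the opposite strand.

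Epha2 was otherwise an endothelial gene. Colonic CD31+ RSPO3+ libraries had 39.4, 46.2 and 40.03 CPM and CD31+ RSPO3- libraries 101, 78.4 and 76.5 CPM, against 8.39, 4.85 and 11.8 CPM in CD31- RSPO3+ libraries and 15.03, 14.1 and 11.6 CPM in CD31- RSPO3- libraries. Small intestinal CD31+ RSPO3+ libraries had 38.5, 36.1 and 33.9 CPM, against 52.2, 38.3 and 55.8 CPM in CD31+ RSPO3- libraries. Its lower level in colonic CD31+ RSPO3+ cells (-1.02, edgeR adjusted p = 0.026) did not pass without RSPO3+ library 1, 2 or 3 (edgeR adjusted p = 0.0899, 0.0508 and 0.0896) or RSPO3- library 1 or 2 (0.113 and 0.0514). Epha1 outside the small intestinal CD31- RSPO3- group was low, at 1.32, 0.448 and 1.19 CPM in colonic CD31+ RSPO3+ libraries, 2.35, 1.88 and 3.75 CPM in CD31+ RSPO3- libraries, 5.27, 5.71 and 3.73 CPM in CD31- RSPO3+ libraries and 5.38, 4.11 and 3.97 CPM in CD31- RSPO3- libraries. Small intestinal CD31+ libraries had 3.12, 2.82 and 1.304 CPM with and 4.43, 3.67 and 2.76 CPM without the reporter. The colonic CD31+ call of lower Epha1 with the reporter (-1.42, edgeR adjusted p = 0.0118) ended without RSPO3+ library 2 or RSPO3- library 3 (0.0638 and 0.0791).

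Epha4 encodes a receptor that binds ephrins of both classes, and it showed the largest RSPO3 difference of the tested members in CD31+ cells of each tissue. Colonic CD31+ RSPO3+ libraries had 0, 0.320 and 0.271 CPM, against 39.9, 36.6 and 18.4 CPM in CD31+ RSPO3- libraries. Small intestinal CD31+ RSPO3+ libraries had 1.698, 0.429 and 0 CPM, against 35.1, 19.3 and 17.1 CPM in CD31+ RSPO3- libraries. The CD31+ RSPO3- libraries lay above all others of the series, and the CD31+ RSPO3+ groups held 10 counts in the colon and 44 in the small intestine over 3 libraries. Epha4 fell in CD31+ RSPO3+ cells of the colon (log2 fold change -7.28 ± 1.02 SE, edgeR adjusted p = 2.14e-05; -6.66 without RSPO3+ library 1) and the small intestine (-4.92 ± 0.89, edgeR adjusted p = 3.64e-04; -6.50 without RSPO3+ library 1). CD31- libraries had 0.488, 1.12 and 2.15 CPM in colonic RSPO3+, 2.78, 3.3005 and 1.82 CPM in colonic RSPO3-, 1.17, 2.199 and 0.340 CPM in small intestinal RSPO3+ and 1.07, 2.15 and 1.297 CPM in small intestinal RSPO3- cells, with no call by reporter. The difference between gates passed (CD31+ minus CD31- -5.45 ± 0.84, edgeR adjusted p = 4.62e-05; -6.18 without small intestinal CD31+ RSPO3+ library 1). The blood endothelial list moved with Epha4, 10 of 10 genes being lower in CD31+ RSPO3+ cells of each tissue, with sums of 485 to 1023 CPM in colonic CD31+ RSPO3+, against 15572 to 20878 CPM in CD31+ RSPO3- libraries, and of 146 to 220.2 CPM in small intestinal CD31+ RSPO3+, against 12152 to 17204 CPM in CD31+ RSPO3- libraries. Its part in the result was not tested. In colonic RSPO3+ cells Epha4 was called lower in CD31+ than in CD31- cells (-2.65, edgeR adjusted p = 0.0351), a call that ended without any CD31+ library (edgeR adjusted p = 0.0503 to 0.113) or without CD31- library 3, where the value was -2.02.

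**Figure D4:**
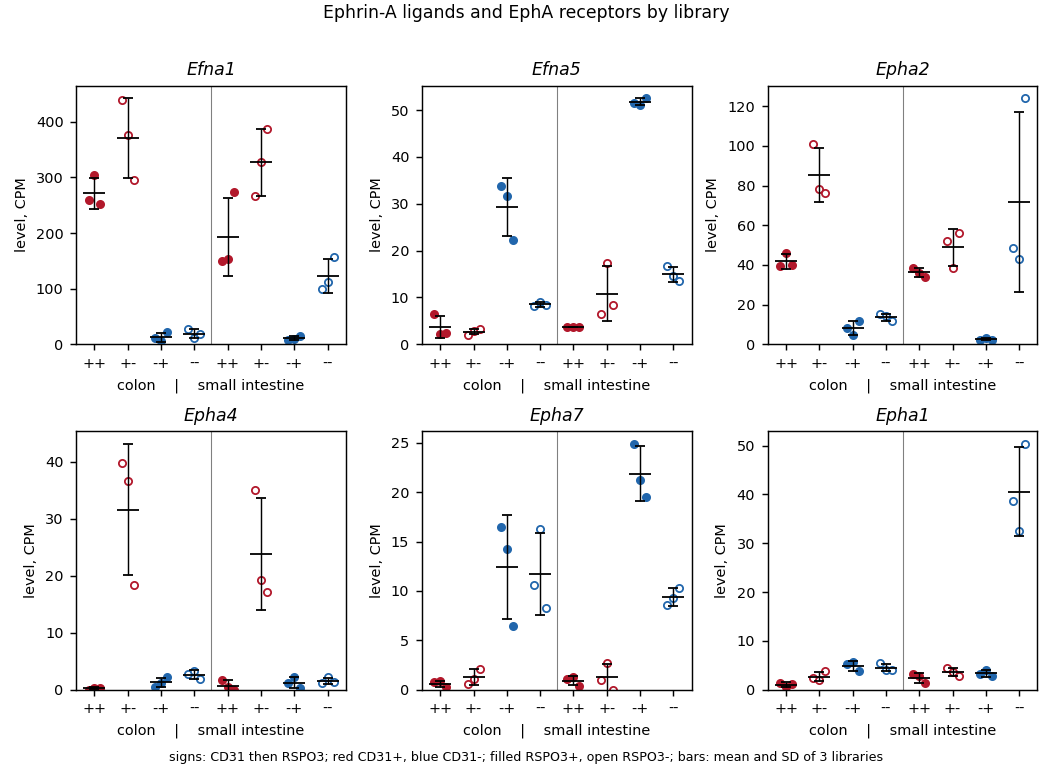
Levels of 2 ephrin-A and 4 EphA genes in CPM in each library, by tissue and by CD31 and RSPO3 sign, with mean and SD of 3 libraries. Epha4 is at least 17.1 CPM in CD31+ RSPO3- libraries and at most 3.30 CPM elsewhere, Efna5 peaks in CD31- RSPO3+ libraries, and Epha1 is 32.6 to 50.4 CPM in small intestinal CD31- RSPO3- libraries and at most 5.71 CPM elsewhere.

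Efna5, encoding ephrin-A5, rose with the reporter in CD31- cells of both tissues. CD31+ libraries were low, at 6.37, 2.17 and 2.49 CPM in colonic RSPO3+, 1.997, 2.85 and 3.15 CPM in colonic RSPO3-, 3.63, 3.62 and 3.67 CPM in small intestinal RSPO3+ and 6.37, 17.4 and 8.44 CPM in small intestinal RSPO3- cells. Colonic CD31- RSPO3+ libraries had 33.8, 31.6 and 22.2 CPM, against 8.103, 9.06 and 8.27 CPM in CD31- RSPO3- libraries (log2 fold change 1.78 ± 0.36 SE, edgeR adjusted p = 0.00301). Small intestinal CD31- RSPO3+ libraries had 51.5, 51.1 and 52.6 CPM, against 16.8, 14.5 and 13.6 CPM (1.79 ± 0.35, edgeR adjusted p = 6.87e-04). The groups did not overlap in either tissue. Of 8 fibroblast genes, 7 rose with the reporter in small intestinal CD31- cells and none passed in colonic ones, and their part was not tested. In small intestinal CD31+ cells Efna5 was lower with the reporter (-1.56 ± 0.36, edgeR adjusted p = 0.00368). The tissue difference of this effect (2.02, edgeR adjusted p = 0.0445) was 1.41 and did not pass without colonic CD31+ RSPO3+ library 1 (edgeR adjusted p = 0.125), nor without colonic CD31+ RSPO3- library 1 or 2, any small intestinal CD31+ RSPO3+ library or CD31+ RSPO3- library 2. The CD31 difference of colonic RSPO3+ cells was -2.99, and -3.63 without CD31+ library 1. Colonic CD31+ RSPO3- cells were lower for Efna5 than those of the small intestine (-2.01 ± 0.36, edgeR adjusted p = 0.00276).

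Epha7 and Efna2 were measured at lower levels. Epha7 had 0.722, 0.831 and 0.217 CPM in colonic CD31+ RSPO3+ libraries and 0.599, 1.06 and 2.11 CPM in CD31+ RSPO3-, against 16.5, 14.3 and 6.45 CPM in CD31- RSPO3+ libraries and 10.6, 16.3 and 8.27 CPM in CD31- RSPO3- libraries. The small intestine had 1.102, 1.23 and 0.356 CPM in CD31+ RSPO3+ libraries and 1.003, 2.699 and 0 CPM in CD31+ RSPO3-, against 24.9, 21.2 and 19.5 CPM in CD31- RSPO3+ libraries and 8.55, 9.25 and 10.3 CPM in CD31- RSPO3- libraries. The lower level in CD31+ cells passed in all 4 comparisons, and the small intestinal RSPO3 difference in CD31- cells (1.22 ± 0.70) did not pass (edgeR adjusted p = 0.204) although its libraries did not overlap. The CD31 difference of RSPO3- cells was -3.21 in the colon, or -3.85 without CD31+ library 3, and -2.90 in the small intestine, or -4.16 without CD31+ library 2. Efna2 had 2.47, 1.28 and 1.62 CPM in colonic CD31+ RSPO3+ libraries and 5.94, 3.38 and 6.17 CPM in CD31+ RSPO3-, against 15.8, 14.04 and 8.79 CPM in CD31- RSPO3+ libraries and 5.81, 8.18 and 12.5 CPM in CD31- RSPO3- libraries. Small intestinal levels were 1.19, 1.35 and 2.73 CPM in CD31+ RSPO3+ libraries and 1.95, 5.95 and 0.862 CPM in CD31+ RSPO3-, against 15.6, 14.9 and 17.4 CPM in CD31- RSPO3+ libraries and 6.23, 5.12 and 7.68 CPM in CD31- RSPO3- libraries. Its lower level in CD31+ cells passed in the RSPO3+ fraction of both tissues (-2.84 and -3.21). The call of lower Efna2 in colonic CD31+ RSPO3+ than CD31+ RSPO3- cells (-1.52, edgeR adjusted p = 0.0372) ended without RSPO3+ library 2 or 3 (0.132 and 0.114) or RSPO3- library 1 or 3 (0.104 and 0.105). The remaining class A members, Efna3, Efna4, Epha3 and Epha5, were at 5.56 CPM or less on average in every group. Efna3 lay at 0.139 CPM in colonic CD31+ RSPO3+ libraries and 0.221 CPM in small intestinal CD31+ RSPO3+ cells (7 and 8 counts over 3 libraries), against 3.14 and 2.23 CPM in CD31+ RSPO3- cells. Efna3 was called lower in both tissues (edgeR adjusted p = 0.0033 and 0.0188), the small intestinal call not passing without RSPO3+ library 1 (edgeR adjusted p = 0.0638). Efna1, Efna3 and Efna4 lie near one another on chromosome 3.

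Slit3, a secreted repellent, was called lower in CD31+ than in CD31- cells in all 4 comparisons. Slit3 (ENSMUSG00000056427, chromosome 11, 35121224 to 35708507) had 49.6, 11.3 and 20.6 CPM in colonic CD31+ RSPO3+ libraries, 36.7, 24.6 and 57.7 CPM in colonic CD31+ RSPO3- libraries, 10.3, 13.3 and 6.28 CPM in small intestinal CD31+ RSPO3+ libraries and 22.1, 18.8 and 17.9 CPM in small intestinal CD31+ RSPO3- libraries. Colonic CD31- RSPO3+ libraries had 733, 781 and 496 CPM, against 147, 163 and 114 CPM in CD31- RSPO3- libraries, a 4.73-fold rise (log2 fold change 2.24 ± 0.40 SE, edgeR adjusted p = 0.00125). Small intestinal CD31- RSPO3+ libraries had 720.3, 698 and 482 CPM, against 143, 114 and 120.4 CPM in CD31- RSPO3- libraries (2.33 ± 0.40, edgeR adjusted p = 2.01e-04). The CD31- groups did not overlap in either tissue. The reporter difference did not pass in CD31+ cells (-0.55 and -0.96, edgeR adjusted p = 0.348 and 0.103), and it differed between the gates (CD31+ minus CD31- -3.04 ± 0.40, edgeR adjusted p = 6.19e-06). Colonic CD31+ RSPO3+ library 1, with 4323 CPM over the 8 fibroblast genes against 1686 and 2330.2 CPM in libraries 2 and 3, held the highest Slit3 of its group. The colonic CD31 difference in RSPO3+ cells was -4.62, and -5.37 without it. The call of higher Slit3 in colonic than in small intestinal CD31+ RSPO3+ cells (1.43, edgeR adjusted p = 0.0374) was 0.68 without it and did not pass (edgeR adjusted p = 0.332). That call also ended without small intestinal CD31+ RSPO3+ library 1 or 3 (edgeR adjusted p = 0.0939 and 0.156). The fibroblast list moved with Slit3 in CD31- cells: 7 of 8 genes rose in the small intestine, to a sum of 92913 to 104897 CPM in CD31- RSPO3+, against 15639 to 21626 CPM in CD31- RSPO3- libraries. In the colon the sum was 35662 to 65289 CPM in CD31- RSPO3+, against 27333 to 32574 CPM in CD31- RSPO3- libraries, and none of the 8 passed in edgeR. Their part was not tested.

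Slit2 was high in a single fraction. Small intestinal CD31- RSPO3+ libraries had 100.4, 103 and 67.9 CPM, against 10.8, 17.5 and 13.8 CPM in CD31- RSPO3- libraries, and colonic CD31- RSPO3+ libraries had 6.34, 5.44 and 4.55 CPM, against 5.38, 5.501 and 1.48 CPM. CD31+ libraries had 0.962, 0.320 and 0 CPM in colonic RSPO3+, 5.49, 3.81 and 0.733 CPM in colonic RSPO3-, 0.688, 1.35 and 0.119 CPM in small intestinal RSPO3+ and 3.305, 8.93 and 3.36 CPM in small intestinal RSPO3- cells. Every small intestinal CD31- RSPO3+ library lay above all other libraries of the series. Slit2 rose there with the reporter (log2 fold change 2.69 ± 0.74 SE, edgeR adjusted p = 0.00863) and was lower in colonic than in small intestinal CD31- RSPO3+ cells (-4.06 ± 0.79, edgeR adjusted p = 0.00296). In the same small intestinal RSPO3 comparison 7 of 8 fibroblast genes rose, and their part was not tested. The tissue difference of the RSPO3 effect was -2.29 ± 1.01 and did not pass (edgeR adjusted p = 0.174). In CD31+ cells Slit2 was called lower with the reporter in both tissues (edgeR adjusted p = 0.0145 in colon and 0.0192 in small intestine) at the low levels given. The colonic call ended without RSPO3+ library 2 or 3 (edgeR adjusted p = 0.0584 and 0.0566) or RSPO3- library 1 (0.0708). The small intestinal call ended without RSPO3+ library 1 or 3 (edgeR adjusted p = 0.0718 and 0.0726) or RSPO3- library 2 (0.0962). By CD31, Slit2 was called lower in CD31+ cells of the RSPO3+ fraction (-3.67 in colon and -6.87 in small intestine, edgeR adjusted p = 0.00232 and 5.09e-06). In the RSPO3- fraction it did not pass (-0.30 and -1.43, edgeR adjusted p = 0.787 and 0.12), and the colonic libraries overlapped. The colonic RSPO3+ call ended with only the compared libraries and in limma (adjusted p = 0.0551 and 0.0965, over a range of 6.37e-06 to 0.0965).

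The Robo receptors divided by CD31. Robo4 (ENSMUSG00000032125, chromosome 9, 37401897 to 37415115), the endothelial Robo, had 201, 229 and 241 CPM in colonic CD31+ RSPO3+ libraries and 553, 465 and 355 CPM in CD31+ RSPO3-, against 6.83, 3.21 and 9.11 CPM in CD31- RSPO3+ libraries and 1.61, 1.25 and 0 CPM in CD31- RSPO3- libraries. Small intestinal levels were 408, 404 and 379 CPM in CD31+ RSPO3+ libraries and 503, 309 and 438 CPM in CD31+ RSPO3-, against 4.201, 7.62 and 6.32 CPM in CD31- RSPO3+ libraries and 0.277, 0 and 0.595 CPM in CD31- RSPO3- libraries. Every CD31+ library was at 201 CPM or more and every CD31- library at 9.11 CPM or less. In colonic RSPO3+ cells Robo4 was 34.99-fold higher in CD31+ than in CD31- cells (log2 fold change 5.13 ± 0.60 SE, edgeR adjusted p = 1.37e-06). In CD31+ cells the reporter differences of -1.03 and -0.07 did not pass (edgeR adjusted p = 0.149 and 0.956). In CD31- cells Robo4 was called higher with the reporter, by 2.76 ± 0.61 in the colon (edgeR adjusted p = 0.00626, not passing with only the 6 compared libraries, where it was 0.249) and 4.23 ± 0.70 in the small intestine (edgeR adjusted p = 1.31e-04; 4.97 without RSPO3- library 3). The pan-endothelial list moved with it, 8 of 12 genes being higher in CD31- RSPO3+ cells in each tissue, with sums of 380.3 to 470.4 CPM in colonic CD31- RSPO3+, against 133 to 178 CPM in CD31- RSPO3- libraries, and of 178 to 223 CPM in small intestinal CD31- RSPO3+, against 77.9 to 95.6 CPM in CD31- RSPO3- libraries. Its part was not tested.

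Robo3 stayed low, at 1.16 CPM in colonic CD31+ RSPO3+ libraries, 4.24 CPM in colonic CD31+ RSPO3- libraries, 1.82 CPM in small intestinal CD31+ RSPO3+ libraries and 1.903 CPM in small intestinal CD31+ RSPO3- cells. CD31- RSPO3+ cells held 4 counts in the colon and 2 in the small intestine over 3 libraries, and both CD31- RSPO3- groups held 0. Robo3 lies on the other strand 553 bases beyond the end of Robo4, and strand is not marked in these libraries. Robo2 and Robo1, the receptors of Slits in neurons, were on the CD31- side. Robo2 had 11.5, 5.43 and 6.12 CPM in colonic CD31+ RSPO3+ libraries and 2.096, 9.75 and 24.3 CPM in CD31+ RSPO3-, against 60.7, 73.01 and 43.8 CPM in CD31- RSPO3+ libraries and 61.3, 128 and 70.2 CPM in CD31- RSPO3- libraries. The small intestine had 4.27, 2.39 and 1.07 CPM in CD31+ RSPO3+ libraries and 4.37, 6.23 and 4.998 CPM in CD31+ RSPO3-, against 69.8, 78.7 and 60.3 CPM in CD31- RSPO3+ libraries and 85.7, 65.4 and 68.6 CPM in CD31- RSPO3- libraries. The CD31 groups did not overlap, and the RSPO3 differences of CD31- cells were -0.55 and -0.07 and did not pass (edgeR adjusted p = 0.595 and 0.942). In colonic RSPO3- cells the CD31 difference of -2.84 ± 0.57 was -3.91 without CD31+ library 3, which held the most Robo2 of its group.

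Robo1 showed the same split, with 2.89, 0.639 and 2.27 CPM in colonic CD31+ RSPO3+ libraries and 1.398, 0.820 and 6.86 CPM in CD31+ RSPO3-, against 17.5, 16.3 and 10.7 CPM in CD31- RSPO3+ libraries and 25.5, 61.02 and 30.2 CPM in CD31- RSPO3- libraries. Small intestinal libraries had 1.42, 0.859 and 0.119 CPM in CD31+ RSPO3+ libraries and 0.354, 0 and 0.0862 CPM in CD31+ RSPO3-, against 28.96, 26.2 and 18.4 CPM in CD31- RSPO3+ libraries and 23.7, 15.5 and 19.6 CPM in CD31- RSPO3- libraries. The call of higher Robo1 in colonic than in small intestinal CD31+ RSPO3- cells (4.21, edgeR adjusted p = 0.0113) rested on 7 counts in the small intestine, and it did not pass without colonic library 3 (2.72, edgeR adjusted p = 0.0863) or small intestinal library 2 or 3 (0.0576 and 0.0522). Without small intestinal library 1 it was 6.02. The CD31 difference of colonic RSPO3- cells was -3.68, and -5.17 without CD31+ library 3.

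**Figure D5:**
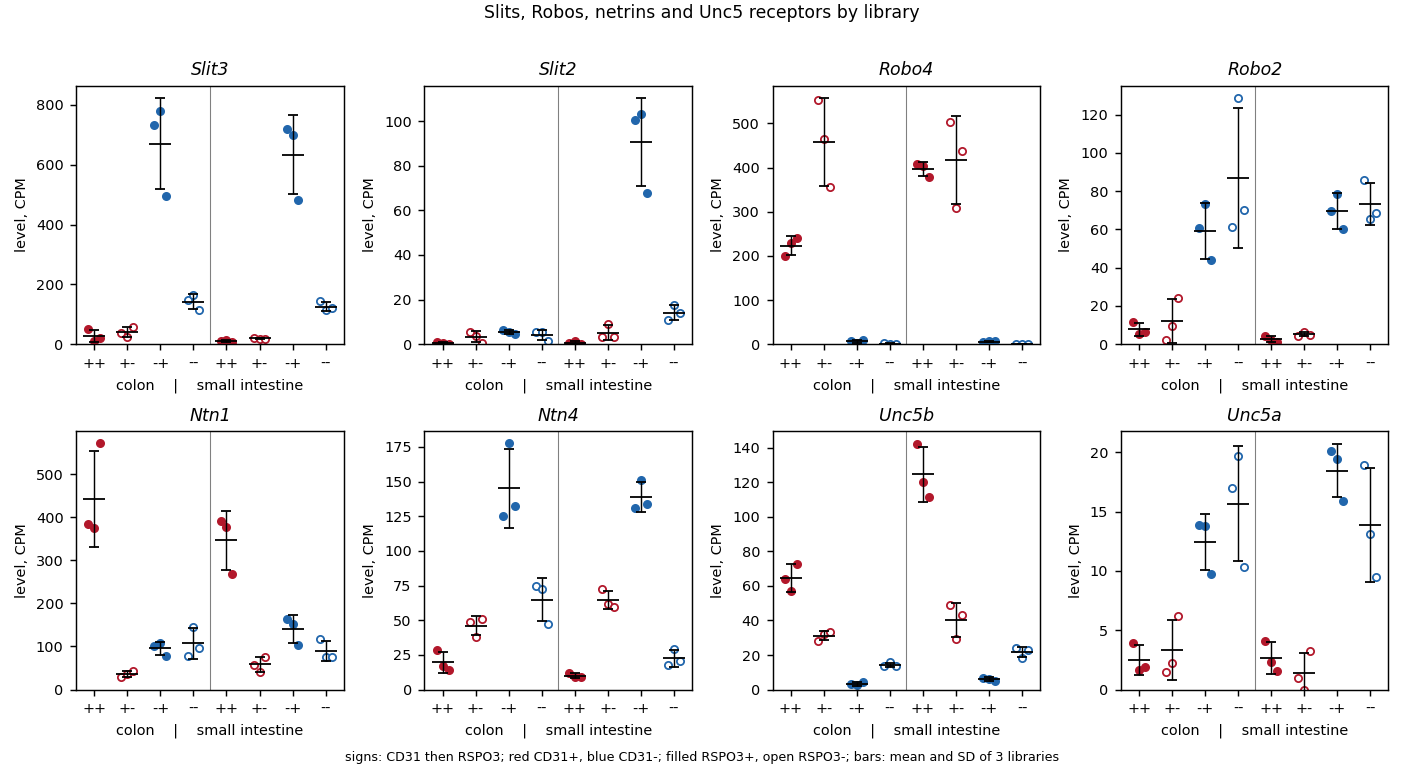
Levels of 2 Slit, 2 Robo, 2 netrin and 2 Unc5 genes in CPM in each library, by tissue and by CD31 and RSPO3 sign, with mean and SD of 3 libraries. Slit3 peaks in CD31- RSPO3+ libraries (482 to 781 CPM), Ntn1 in CD31+ RSPO3+ libraries, and Ntn4 and Unc5b go opposite ways with the reporter in CD31+ and CD31- cells.

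Ntn1, the gene of netrin-1, rose in CD31+ RSPO3+ cells of both tissues to the highest levels of the series. Ntn1 (ENSMUSG00000020902, chromosome 11, 68209364 to 68400823) had 383, 374 and 572 CPM in colonic CD31+ RSPO3+, against 29.2, 35.2 and 42.8 CPM in CD31+ RSPO3- libraries, a 12.4-fold rise (log2 fold change 3.63 ± 0.30 SE, edgeR adjusted p = 3.78e-08). Small intestinal CD31+ RSPO3+ libraries had 392, 378 and 268 CPM, against 58.1, 41.2 and 75.8 CPM (2.57 ± 0.29, edgeR adjusted p = 1.62e-06). The 6 CD31+ RSPO3+ libraries were the highest of the series. CD31- libraries lay between, at 100.4, 108 and 78.2 CPM in colonic RSPO3+, 78.6, 146 and 96.001 CPM in colonic RSPO3-, 163, 153 and 103 CPM in small intestinal RSPO3+ and 116, 76.3 and 76.2 CPM in small intestinal RSPO3- cells, with no call by reporter. Ntn1 was higher in CD31+ than in CD31- cells of the RSPO3+ fraction (2.21 in colon, 1.31 in small intestine) and lower in the RSPO3- fraction of the colon (-1.58, edgeR adjusted p = 2.24e-04). The RSPO3 difference differed between the gates (CD31+ minus CD31- 2.86 ± 0.28, edgeR adjusted p = 1.47e-07). The lymphatic list moved with it as given above, and its part in the result was not tested.

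Ntn4, encoding a basement membrane netrin that inhibits netrin-1 signaling, went the other way. It had 28.2, 16.9 and 14.1 CPM in colonic CD31+ RSPO3+, against 48.8, 38.2 and 50.9 CPM in CD31+ RSPO3-, and 125, 178 and 133 CPM in CD31- RSPO3+, against 74.5, 72.9 and 46.97 CPM in CD31- RSPO3- libraries. Small intestinal libraries had 12.2, 9.08 and 9.01 CPM in CD31+ RSPO3+, against 72.4, 61.7 and 59.8 CPM in CD31+ RSPO3-, and 131, 151 and 134 CPM in CD31- RSPO3+, against 17.5, 29.1 and 20.7 CPM in CD31- RSPO3- libraries. No pair overlapped, and the RSPO3+ libraries were lower in CD31+ and higher in CD31- cells. Ntn4 fell in CD31+ RSPO3+ cells (log2 fold change -1.22 ± 0.24 SE in colon, edgeR adjusted p = 9.75e-04; -2.67 ± 0.26 in small intestine, edgeR adjusted p = 2.49e-07) and rose in CD31- RSPO3+ cells (1.16 ± 0.24, edgeR adjusted p = 0.00409; 2.63 ± 0.26, edgeR adjusted p = 4.15e-07). In the CD31- comparisons 7 of 8 fibroblast genes also rose in the small intestine and none passed in the colon, and their part was not tested. The gates differed for Ntn4 by -3.84 ± 0.25 (edgeR adjusted p = 6.98e-10). Both effects were larger in the small intestine, the tissue difference passing in CD31- cells (-1.47 ± 0.34, edgeR adjusted p = 0.0104) and in CD31+ cells (1.45 ± 0.35, edgeR adjusted p = 0.0327). The CD31+ tissue difference ended without colonic CD31+ RSPO3+ library 1, CD31+ RSPO3- library 1 or 2, small intestinal CD31+ RSPO3+ library 2 or 3 or CD31+ RSPO3- library 1 (edgeR adjusted p = 0.0504 to 0.0727). Between tissues, Ntn4 was higher in colonic than in small intestinal CD31- RSPO3- cells (1.53 ± 0.25, edgeR adjusted p = 1.80e-04). Ntn3 was low, with 2.59, 2.56 and 2.92 CPM in colonic CD31+ RSPO3+ libraries and 1.55, 2.702 and 2.59 CPM in CD31+ RSPO3-, against 13.3, 13.3 and 8.28 CPM in CD31- RSPO3+ libraries and 4.52, 5.43 and 2.68 CPM in CD31- RSPO3- libraries. The small intestine had 1.65, 0.429 and 1.66 CPM in CD31+ RSPO3+ libraries and 0.944, 0.208 and 0.862 CPM in CD31+ RSPO3-, against 7.35, 3.97 and 6.12 CPM in CD31- RSPO3+ libraries and 6.09, 3.22 and 5.35 CPM in CD31- RSPO3- libraries. Ntn3 overlaps Tbc1d24 on the same strand, so reads of both may be split between them.

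Unc5b, a netrin receptor of endothelium that Robo4 also binds, mirrored Ntn4. It had 64.3, 56.96 and 72.7 CPM in colonic CD31+ RSPO3+, against 28.2, 31.9 and 33.3 CPM in CD31+ RSPO3-, and 3.02, 2.36 and 4.62 CPM in CD31- RSPO3+, against 13.5, 15.7 and 13.5 CPM in CD31- RSPO3- libraries. Small intestinal libraries had 142, 120.3 and 111 CPM in CD31+ RSPO3+, against 48.8, 29.2 and 42.996 CPM in CD31+ RSPO3-, and 6.83, 6.22 and 4.71 CPM in CD31- RSPO3+, against 23.8, 18.2 and 22.8 CPM in CD31- RSPO3- libraries. Again no pair overlapped, with RSPO3+ libraries higher in CD31+ and lower in CD31- cells. Unc5b rose in CD31+ RSPO3+ cells of the colon (log2 fold change 1.05 ± 0.21 SE, edgeR adjusted p = 9.79e-04) and the small intestine (1.63 ± 0.21, edgeR adjusted p = 1.19e-05). It fell in CD31- RSPO3+ cells of the colon (-2.09 ± 0.23, edgeR adjusted p = 1.05e-05) and the small intestine (-1.87 ± 0.22, edgeR adjusted p = 3.48e-06), and the gates differed by 3.32 ± 0.22 (edgeR adjusted p = 8.56e-10). In the colonic CD31- comparison 6 of 6 smooth muscle, 5 of 6 pericyte and 5 of 5 tested glia genes were also lower. In the small intestinal CD31- comparison 7 of 9 epithelial, 5 of 5 glia and 4 of 4 mesothelial genes were lower, and 1 epithelial gene rose. In CD31+ cells the lymphatic and blood endothelial lists moved as given above. The part of these lists in the Unc5b results was not tested. Colonic CD31+ RSPO3+ cells held less Unc5b than small intestinal ones (-0.95 ± 0.21, edgeR adjusted p = 0.00841), a call that did not pass without small intestinal library 1 (edgeR adjusted p = 0.0511).

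Unc5a, a receptor studied mostly in neurons, was called lower in CD31+ than in CD31- cells in all 4 comparisons. Unc5a had 3.91, 1.66 and 1.896 CPM in colonic CD31+ RSPO3+ libraries and 1.497, 2.22 and 6.21 CPM in CD31+ RSPO3-, against 13.9, 13.8 and 9.74 CPM in CD31- RSPO3+ libraries and 16.9, 19.7 and 10.4 CPM in CD31- RSPO3- libraries. Small intestinal libraries had 4.13, 2.33 and 1.54 CPM in CD31+ RSPO3+ libraries and 0.944, 0 and 3.27 CPM in CD31+ RSPO3-, against 20.1, 19.4 and 15.9 CPM in CD31- RSPO3+ libraries and 18.97, 13.1 and 9.51 CPM in CD31- RSPO3- libraries. The CD31 groups did not overlap and the reporter gave no call. The colonic RSPO3+ call of lower Unc5a in CD31+ cells (-2.32) ended without CD31+ library 2 or 3 (edgeR adjusted p = 0.0901 and 0.0848) or CD31- library 1 or 2 (0.055 and 0.0508). The colonic RSPO3- difference of -2.24 was -3.12 without CD31+ library 3 and ended without CD31+ library 1 or 2 (edgeR adjusted p = 0.111 and 0.0987) or CD31- library 1 or 2 (0.0565 and 0.0657). In small intestinal RSPO3- cells it was -3.33, and -4.87 without CD31+ library 3. Unc5c, a related receptor, passed in 1 of the 4 CD31 comparisons, with 0.102 CPM on average in small intestinal CD31+ RSPO3+, against 1.34 CPM in CD31- RSPO3+ cells (-3.42, edgeR adjusted p = 0.00476). That call ended in limma (adjusted p = 0.684, over a range of 2.96e-04 to 0.684). Unc5c averaged 0.780 CPM in colonic CD31- RSPO3+, against 6.37 CPM in CD31- RSPO3- cells, and was called lower with the reporter there and in CD31+ cells of both tissues (edgeR adjusted p = 0.0191, 0.0167 and 0.00735). The colonic CD31- call ended without RSPO3+ library 2 or 3 (edgeR adjusted p = 0.0665 and 0.0531) or RSPO3- library 2 or 3 (0.0548 and 0.0537), and the colonic CD31+ call ended without RSPO3+ library 1 or 3 (0.0689 and 0.0503). In colonic CD31- cells the 5 tested enteric glia genes were all lower with the reporter. Their list summed to 7.15 to 25.04 CPM in CD31- RSPO3+, against 124 to 292 CPM in CD31- RSPO3- libraries. Also lower there were 6 of 6 smooth muscle genes, 5 of 6 pericyte genes and 2 of 3 genes of interstitial cells of Cajal. All 5 glia genes were lower in small intestinal CD31- RSPO3+ cells too, where Unc5c was not called. With the reporter in CD31+ cells, 1 glia gene was lower in the colon and none in the small intestine. The part of these cell types in the Unc5c results was not tested.

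A list of 42 other genes of these pathways, with co-receptors, cytoplasmic partners and cytoskeletal effectors, held 37 tested genes. With the reporter, 7 rose and 9 fell in colonic CD31+ cells (23.1% of all genes called, 9.52% higher and 13.6% lower), and 7 rose and 7 fell in small intestinal CD31+ cells (20.1% of all genes called, 9.23% higher and 10.8% lower). In CD31- cells 5 rose and 6 fell in the colon (9.14% of all genes called, 4.8% higher and 4.34% lower), and 12 rose and 5 fell in the small intestine (30.4% of all genes called, 16.1% higher and 14.3% lower). Ablim1, an actin-binding protein whose worm homologue acts in netrin signaling, fell in CD31+ RSPO3+ cells (-2.27 in colon and -4.55 in small intestine on the log2 scale, edgeR adjusted p = 1.93e-05 and 1.42e-08). Nck2, an adaptor of Eph and ephrin-B signaling, led the falls of colonic CD31+ cells by p (-1.56, edgeR adjusted p = 9.30e-07). Mcam, an endothelial and mural adhesion molecule reported to bind netrin-1, averaged 11.5 ± 3.19 CPM in small intestinal CD31+ RSPO3+, against 161 ± 78.2 CPM in CD31+ RSPO3- cells (-3.80, edgeR adjusted p = 3.67e-07). In CD31- cells Rgmb, a ligand of neogenin, rose with the reporter. It averaged 208 ± 41.8 CPM in colonic CD31- RSPO3+, against 87.2 ± 8.86 CPM in CD31- RSPO3- cells, and 166 ± 8.53 CPM in small intestinal CD31- RSPO3+, against 54.3 ± 1.55 CPM in CD31- RSPO3- cells (1.25 and 1.61, edgeR adjusted p = 2.87e-05 and 3.63e-07). The kinase gene Fyn rose in colonic CD31- RSPO3+ cells (1.42, edgeR adjusted p = 9.30e-06). Flrt2, encoding a membrane ligand of Unc5 receptors, rose in small intestinal CD31- RSPO3+ cells, at 72.4 ± 12.03 CPM, against 4.63 ± 1.25 CPM in CD31- RSPO3- cells (3.97, edgeR adjusted p = 2.27e-07). By CD31, 9 to 13 of the 37 tested genes were higher and 12 to 14 lower in CD31+ cells over the 4 comparisons, in which 32.5 to 41.6% of all genes were called. Adam10, encoding a protease that sheds ephrins, was higher in CD31+ cells in all 4 comparisons. In the RSPO3+ fraction it averaged 433 ± 63.2 CPM in colonic CD31+ RSPO3+, against 64.3 ± 5.37 CPM in CD31- RSPO3+ cells (2.75, edgeR adjusted p = 1.10e-09), with a difference of 2.32 in the small intestine (edgeR adjusted p = 4.06e-09). In the RSPO3- fraction the differences were 1.42 and 1.56 (edgeR adjusted p = 3.97e-06 in colon and 8.01e-07 in small intestine). Rgmb was lower in colonic CD31+ RSPO3+ than in CD31- RSPO3+ cells (-2.13, edgeR adjusted p = 3.08e-09), and Ablim1 was lower in the same comparison of the small intestine (-4.55, edgeR adjusted p = 3.64e-09). In the RSPO3- fraction the adaptor gene Nck1 had the smallest p of the list in both tissues, and it was higher in CD31+ cells (1.79 in colon and 2.46 in small intestine, edgeR adjusted p = 1.68e-07 and 2.64e-09). Eva1c, encoding a Slit-binding protein, rose in small intestinal CD31+ RSPO3- cells (3.77, edgeR adjusted p = 4.73e-08). Between the tissues, Flrt2 and Ablim1 were higher in colonic than in small intestinal CD31+ RSPO3+ cells (2.74 and 2.33, edgeR adjusted p = 4.68e-05 and 1.14e-04), and their RSPO3 differences in CD31+ cells differed between the tissues (colon minus small intestine 2.61 and 2.29, edgeR adjusted p = 0.00438 and 0.00642). Gpc1, encoding a cell surface proteoglycan, was higher in colonic than in small intestinal CD31+ RSPO3- cells (1.78, edgeR adjusted p = 0.0104). Flrt2 and Rgmb were higher in colonic than in small intestinal CD31- RSPO3- cells (1.79 and 0.68, edgeR adjusted p = 8.08e-04 and 0.00307). The RSPO3 differences of Ablim1 and Rgmb were lower in CD31+ than in CD31- cells over both tissues (-4.92 and -1.96, edgeR adjusted p = 6.65e-10 and 5.58e-09).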

How the data were processed

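RNA of 24 libraries of sorted mouse intestinal stroma was read with SMART-Seq v4 chemistry, in which the strand of origin is lost. The deposited estimated counts per gene came from Salmon 1.3.0 with R 4.0.1 and mm10, per the submitters' processing notes, which give no roles. A second deposited table holds log2(TPM + 1) values of the same libraries, by its values, scaled by the authors to one sum per library. Columns name tissue, CD31 and RSPO3 sign, and library numbers 1 to 3 here are column order.

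Gene symbols came from GENCODE M21 on GRCm38 (54096 of 54418 IDs, 99.4%), and the other IDs held at most 0.068% of counts. Members are symbols of the Eph, ephrin, Slit1 to Slit3, Robo, netrin (Ntn1, Ntn3, Ntn4, Ntn5) and Unc5 genes. Members and gene lists were chosen with earlier results of these data known. Counts were rounded, filtered (edgeR filterByExpr, minimum count 10, minimum total 15, leaving 19050 genes), scaled by TMM and fitted over all 8 groups in edgeR 4.0.16 (R 4.3.3) with its quasi-likelihood test, for 12 pairwise and 3 difference comparisons. The common biological coefficient of variation was 0.429. Log2 fold changes carry that model's SE, p-values are two-sided, and calls need a Benjamini-Hochberg adjusted p under 0.05. Adjusted p-values printed for left-out libraries come from the same edgeR test. The code was tested on simulated counts. Values in every library are given for members with a mean of 10 CPM or more in a group and a called log2 fold change of at least 1 in size. Of 42 other pathway genes, those called with the 2 smallest adjusted p per comparison are named.

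Alternatives were DESeq2 1.42.0, edgeR with DESeq2 size factors, no low-count filter, only the compared libraries, limma 3.58.1 on the deposited log2 values and leaving out each library. Libraries of a group correlated at r = 0.958 to 0.991 across genes and differed by more than sampling noise (chi-square per degree of freedom at least 27.2). Totals of 8462041 to 29214487 counts set the precision, and values of genes with a few counts carry large counting error. TPM values for member levels are deposited values taken back from the log2 scale. Upstream sequences are from the RefSeq promoter table for GRCm38.p6.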

Additional observations from a re-analysis of the deposited data

Results flagged for a closer look

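The results below are differences between 2 RSPO3 effects that passed a test of the difference itself (an edgeR contrast of contrasts, adjusted p under 0.05). No explanation was tested. Averaged over both tissues, the RSPO3 difference (log2 fold change, CD31+ minus CD31-) was more positive in CD31+ cells for Unc5b (3.32), Ntn1 (2.86), Epha2 (2.03), Efnb3 (2.03), Efnb2 (1.53) and Efna1 (1.42). For Epha2 and Efna1 the RSPO3 effect in CD31- cells itself differed between tissues (colon minus small intestine 4.12 and 2.91). In colonic CD31+ cells Epha2 averaged 41.9 CPM with and 85.2 CPM without the reporter, and Efna1 271 and 370 CPM. In colonic CD31- cells Epha2 averaged 8.36 and 13.6 CPM, and Efna1 12.6 and 18.8 CPM. The average for these genes therefore does not stand for the colon alone. Left-out libraries moved Efnb3 to 2.64 (colonic CD31+ RSPO3- library 1).

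The averaged RSPO3 difference was more negative in CD31+ cells for Epha4 (-5.445), Slit2 (-4.40), Robo3 (-4.14), Robo4 (-4.045), Ntn4 (-3.84), Efna3 (-3.58), Slit3 (-3.04), Efna5 (-2.34) and Efna2 (-2.08). Robo4 had no call by reporter in CD31+ cells, and its CD31- RSPO3- groups held 60 counts in the colon and 19 in the small intestine. In this comparison 9 of 12 pan-endothelial genes were also lower and 1 was higher, and their part was not tested. Slit2 was -5.07 without colonic CD31+ RSPO3+ library 1, and Epha4 -6.18 without small intestinal CD31+ RSPO3+ library 1. Robo3 held 0 counts in both CD31- RSPO3- groups, so its fitted value is no measure of size, and its call ended without colonic CD31- RSPO3+ library 3 or small intestinal CD31- RSPO3+ library 2. Ntn4 and Unc5b were the genes called in opposite directions in the 2 gates of both tissues.

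Between tissues (colon minus small intestine), the RSPO3 effect in CD31+ cells differed for Efna5 (2.02), Ntn4 (1.45) and Efnb1 (-1.75). In CD31- cells it differed for Epha2 (4.12), Epha1 (3.75), Efna1 (2.91) and Ntn4 (-1.47). The Efna5 and Ntn4 differences in CD31+ cells ended without several single libraries, colonic CD31+ RSPO3+ library 1 among them (edgeR adjusted p = 0.125 and 0.0716).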

How the results depend on the processing

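Over the 15 comparisons there were 176 member calls. None changed sign under any alternative run, and 176 were kept by DESeq2, 175 with DESeq2 size factors, 172 with no low-count filter, 155 in limma on log2(TPM + 1) and 131 of 154 pairwise calls with only the compared libraries. A left-out library ended 32 calls. Outside left-out libraries, the count of members called moved past 1.5 times in these cases. For RSPO3 in colonic CD31- cells it was 13 in limma, against 7. For colon against small intestine in CD31+ RSPO3- cells, against 3, it was 6 in DESeq2 and 0 in edgeR with only the compared libraries, where 9 members had an unadjusted p under 0.05 (limma called 2). In CD31- RSPO3+ cells it was 1 with only the compared libraries, against 3, and in CD31- RSPO3- cells 9 with only the compared libraries and 9 in limma, against 4. For the tissue difference of the RSPO3 effect in CD31- cells it was 7 in limma, against 4. The cause was not tested. Left-out libraries moved 4 counts: RSPO3 in colonic CD31+ cells ranged from 9 to 13, against 15. Colon against small intestine ranged from 3 to 5 in CD31+ RSPO3+ cells, against 5, and from 1 to 5 in CD31+ RSPO3- cells, against 3. The tissue difference in CD31+ cells ranged from 1 to 3, against 3. DESeq2 size factors moved the median of all genes from 0.108 by -0.108 for RSPO3 in small intestinal CD31- cells and by 0.117 for the tissue difference in CD31- cells. By RSPO3 in CD31+ cells, calls of Epha1, Ephb6 and Slit2 (colon) and of Ephb4 and Unc5c (small intestine) ended both in limma and with only the compared libraries. So did CD31 calls of Epha4, Robo3 and Slit2 (colonic RSPO3+), Epha5 (colonic RSPO3-) and Efna4 (small intestinal RSPO3+). The same held for tissue calls of Slit3 and Ntn4 (both CD31+ RSPO3+), Robo1 (CD31+ RSPO3-), and Epha2 and Unc5b (both CD31- RSPO3+). With only the compared libraries those of Efnb3 and Unc5c (colon), Efna3 and Efna5 (small intestine) by RSPO3 in CD31+ cells, and of Efnb3 and Efna5 between tissues, ended too. The columns carry no replicate number of the labels. A replicate block chosen after seeing the data was made of sets of 4 consecutive running numbers in the column names, 1 library of each fraction of a tissue; no label says what a set shares. It kept 158 of 161 calls in the 11 comparisons it could enter, and ended those of Efna2 (RSPO3, colonic CD31+, -1.52, adjusted p = 0.0525), Efna5 (tissue difference in CD31+ cells, 1.88, adjusted p = 0.0828) and Robo3 (CD31 difference of the RSPO3 effect, -4.13, adjusted p = 0.06). Across genes, deviations from the group means correlated by 0.031 to 0.335 (median 0.143) in 36 pairs of libraries of a set, 22 of them over 0.1, and by -0.316 to 0.132 (median -0.067) in 72 pairs of different sets. Groups of 3 libraries and members with under 10 counts in a group limit what can be told apart.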
